A study of Mus musculus with 2 samples.

Results

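The genes described here are the 4 mouse Notch receptors (Notch1, Notch2, Notch3 and Notch4), the ligands Jag1, Jag2, Dll1 and Dll4, the DNA-binding partner Rbpj and the target gene Hes1. They were chosen by name, and a peak was counted for a gene when its summit lay in the RefSeq GRCm38 span of that gene, introns included. By that rule 64 of the 21192 peaks belonged to these 10 genes, of 21896 protein-coding genes examined. The data were 2 libraries of polyA RNA from wild-type mice, taken from whole uterus at day 4 of gestation. In 1 library, RNA fragments carrying N4-acetylcytidine (ac4C, cytidine with an acetyl group) had been immunoprecipitated, and the other was the input control. Each group had 1 library, the labels give neither the age nor the number of animals, and no value below has a replicate check.

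Notch receptors are transmembrane proteins that are activated by ligands on a neighbouring cell. Binding leads to cleavage by ADAM proteases and then by gamma-secretase, which frees the intracellular domain. That domain enters the nucleus, joins Rbpj and a Mastermind coactivator, and turns on genes such as Hes1, which encodes a transcriptional repressor. In the uterus the pathway is known for roles in blood vessels and in the stroma that decidualizes around the embryo.

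The 10 genes were chosen with earlier results of these data known, so their shares here and below are a description. All 10 genes held a peak, whereas 30.6% of protein-coding genes did. They differed in how many. The receptors held 45 peaks and the ligands 16, of which 11 lay in Jag2, while Rbpj held 2 and Hes1 held 1. The greatest fold enrichment was 19.9, in Jag2, and the highest peaks of Notch1, Notch4 and Notch2 also exceeded 10-fold. Fold enrichment is the authors' own value for each peak, the signal at the summit over its background as given by the peak caller.

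Sequence was at hand for stretches of 4 of the 64 peaks, shown here because they are the reference bases beneath peaks near the starts of Notch1, Jag1 and Dll4 and inside Jag2. They come from RefSeq promoter windows (250 bases before to 50 after a start site) and a microRNA hairpin of GRCm38.p6. All are written 5′ to 3′ on the strand of the named gene. Capitals mark the bases under the peak in Jag1 and Jag2. In Notch1 and Dll4 all printed bases lay under the peak, and capitals mark matches to CNNCNNCNNCNN, cytidines with 2 other bases between them, a pattern often discussed for ac4C.
Notch1, chr2:26503677-26503706, minus strand: ctgagagccCAGCGCCGCCCACCCgccagg
Jag1, chr2:137116471-137116770, minus strand: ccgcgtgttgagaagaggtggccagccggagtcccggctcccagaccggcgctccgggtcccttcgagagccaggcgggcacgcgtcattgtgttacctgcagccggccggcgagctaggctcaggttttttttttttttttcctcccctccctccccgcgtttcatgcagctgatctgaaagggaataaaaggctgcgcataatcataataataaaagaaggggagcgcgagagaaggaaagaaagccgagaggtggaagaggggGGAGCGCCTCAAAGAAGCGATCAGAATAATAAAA
Dll4, chr2:119326299-119326447, plus strand: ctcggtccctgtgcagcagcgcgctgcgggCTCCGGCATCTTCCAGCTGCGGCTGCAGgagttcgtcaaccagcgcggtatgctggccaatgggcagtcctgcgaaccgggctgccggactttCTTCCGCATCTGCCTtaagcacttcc
Jag2 at the hairpin of Mir6941, chr12:112920483-112920541, minus strand: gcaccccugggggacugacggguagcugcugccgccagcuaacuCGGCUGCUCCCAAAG

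The 4 stretches differed in cytidine content. Cytidines made up 44.1% of the 59 bases known under the Notch1 peak, of which the 30 nearest the summit are printed, and 34.9% of the 149 bases of Dll4. They made up 40% of the 15 bases of Jag2 and 17.6% of the 34 bases of Jag1. In stretches of the same length taken from the ends of all 32851 promoter windows, the median cytidine content was 25.4%, 26.2%, 26.7% and 26.5%, in that order. Of the 4 stretches, only that of Jag1 comes from the promoter window of its own gene. For the others, promoter windows are an unlike kind of sequence, here and below. The CNNCNNCNNCNN pattern, searched with overlapping matches allowed, occurred 2 times in the Notch1 stretch, 6 times in Dll4, 1 time in Jag2 and 0 times in Jag1. On the opposite strand it occurred 3 times in Dll4 and 0 times in the others. At least 1 match on the gene's strand was present in 24.4% of promoter stretches of 59 bases, 51.4% of those of 149, 3.99% of those of 15 and 13.9% of those of 34. These are matches of letters in part of each peak and do not place a modified base. The Notch1 stretch was read from the promoter window of Gm35978, and the Dll4 stretch from that of Gm14207, both on the opposite strand. The list gives no strand, so the strand of the enriched fragments is not known.

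Depth was read from the peaks, since library totals were not used here. The fragments at each summit and the background expected there were worked out from the deposited fold and p-value together. The median over all peaks was 22 fragments on a background of 2.63, against 17 fragments on 1.79 for the 64 peaks. Each interval in parentheses is an exact 95% Poisson interval of the fragments at the summit. It covers their counting error only, holds the background fixed and treats fragments copied by PCR as separate. Among markers used to check the tissue, 8 of 8 uterine genes such as Hoxa10, Pgr and Hand2 held a peak. So did 4 of 5 epithelial (all but Epcam), 4 of 4 stromal and 5 of 5 smooth muscle genes. The 2 summits of the smooth muscle gene Tagln also lay in another protein-coding gene. Endothelial genes held a peak in 5 of 6 cases (all but Tek), and blood and immune genes in 2 of 5 (Lyz2 and Cd74). The share over all protein-coding genes was 30.6%. Lyz2 and Cd74 stood at 2.11-fold and 3.66-fold, on backgrounds of 17.9 and 20.6 fragments. For a marker without a peak, fewer cells of a type, less RNA per cell and lack of enrichment cannot be told apart. These counts therefore do not measure the share of each cell type.

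**Figure D1:**
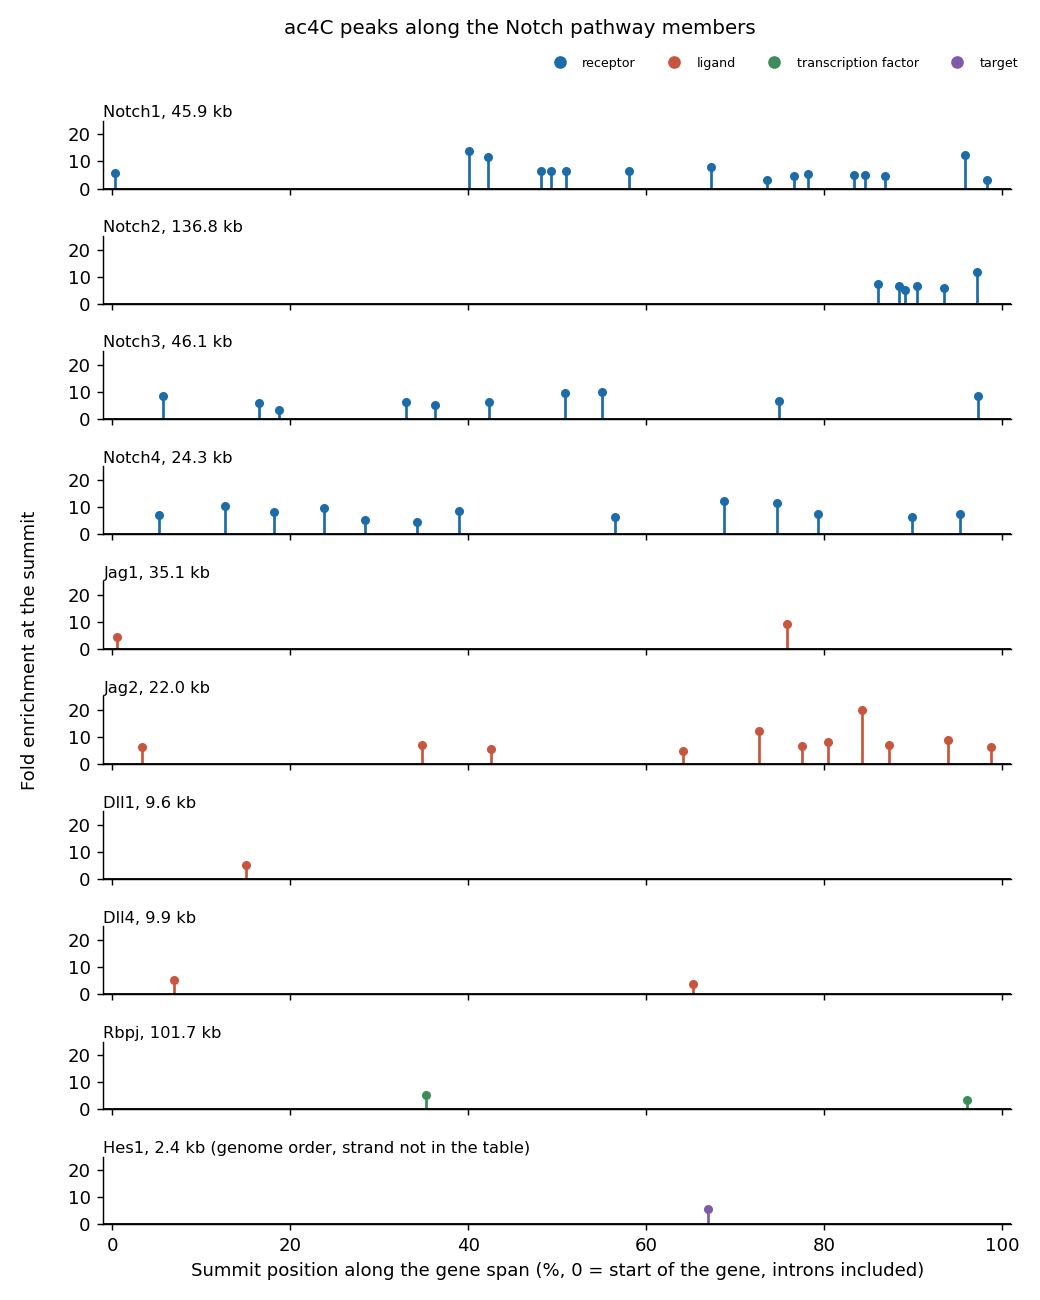
Position (x axis, percent of the gene span from its start) and fold enrichment (y axis) of each of the 64 peaks, 1 row per gene. The 1 peak of Hes1 is placed in genome order, since its strand was not in the promoter table. The peaks of Notch2 crowd into the last part of the span, from 86.0% to 97.1%, while those of Notch4 are spread from 5.23% to 95.3%.

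Notch1 (NCBI gene 18128; chromosome 2, 26457902 to 26503822, minus strand), a receptor widely used across tissues, held 16 peaks, the largest number of the 10 genes. It also held most, 10, with a −log10 q of at least 10, but with peaks below the median fold of the list left out it held 9, fewer than Notch4 with 11. In the full list, at least that many were found in 72 genes, or 1.07% of those with a peak. Of 2424 genes with a span within 25% of its 45.9 kb, 10 held as many. Apart from a peak of 5.87-fold with its summit 157 bp from the gene start, the first 18.4 kb held no summit. The other 15 summits lay between 40.1% and 98.2% of the span.

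The highest peaks of Notch1 had summits at 40.1%, 42.2% and 95.8% of the span. The peak from 26485236 to 26485532 reached 13.98-fold (95% interval 9.85 to 19.3; 35 fragments over a background of 1.58). Its neighbour from 26484094 to 26484758 reached 11.6-fold (8.66 to 15.1). A peak of 1595 bp, from 26459488 to 26461082, reached 12.5-fold (9.68 to 15.8) on 66 fragments, with its summit 1910 bp from the gene end. These intervals overlapped each other. Of the other peaks of Notch1, 10 had intervals that lay wholly below that of the highest, down to 2.98-fold (1.75 to 4.79). The last peak of the gene, at 3.31-fold, also lay in 0610009E02Rik, a long non-coding RNA gene, and the peak list gives no strand.

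Notch2 (NCBI gene 18129; chromosome 3, 98013538 to 98150367, plus strand), a receptor best known from B cells and the developing kidney and liver, held 6 peaks in the longest span of the group, 136.8 kb. All 6 summits lay in its last 19.2 kb, and the nearest peak was 117470 bp from the promoter window. The other 5 had between 5.19-fold and 7.21-fold enrichment. The highest, from 98145949 to 98147911, was 1963 bp wide, the widest of the 64, and reached 11.7-fold (9.03 to 15.0) on 62 fragments. It was also the peak nearest the gene end, with its summit 3949 bp from it.

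Notch3 (NCBI gene 18131; chromosome 17, 32120820 to 32166896, minus strand), the receptor characteristic of vascular smooth muscle and pericytes, held 10 peaks between 5.73% and 97.2% of its 46.1 kb. Enrichment was 9.92-fold (6.31 to 14.9) at the highest peak, from 32141289 to 32141720, and 9.41-fold (6.40 to 13.4) at the next. Both lay near the middle of the span, and the first of them also lay in the long non-coding RNA gene Gm41568. The interval of the highest peak overlapped those of all other peaks of the gene but 1, at 3.31-fold (1.79 to 5.70). At 1154 bp and 1380 bp, 2 of its peaks were at least 1000 bp wide. The wider one ended the series of peaks, 1269 bp from the gene end, at 8.47-fold, and lay also in Gm38585, another long non-coding RNA gene.

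Notch4 (NCBI gene 18132; chromosome 17, 34564286 to 34588543, plus strand), a receptor of endothelial cells, held 13 peaks in 24.3 kb. That was 5.36 peaks per 10 kb, the highest density of the 10 genes, and the peaks covered 20.4% of the span. With a −log10 q of at least 10 its density was 2.47, below the 4.10 of Hes1, whose span is short and holds 1 peak. Of 3125 genes of similar span, 14 held as many. Neighbouring summits were 1393.5 bp apart in the median. The highest peak, from 34580798 to 34581110, reached 12.3-fold (7.88 to 18.3) on 22 fragments over a background of 0.875, and its interval overlapped those of all 12 others. The background over the peaks of Notch4 was low, with a median of 0.875 fragments, against 3.28 in Notch1. Endothelial markers had peaks as well, in 5 of 6 cases, from 3.94-fold in Pecam1 to 14.4-fold in Eng at the highest peak, and their part in the Notch4 values was not tested.

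The genes were chosen by name, but with earlier results of these data known, so their peak widths are a description. In Notch1, Notch2 and Notch3, but not in Notch4, a peak at least 1000 bp wide had its summit within 5 kb of the gene end. Peaks of that width made up 5.50% of the list and 4 of the 45 receptor peaks, and none of the ligand, Rbpj or Hes1 peaks was as wide. The widest peak of Notch4 was 731 bp, at 18.2% of its span. Over all genes with a listed strand, 58.6% of such wide peaks had a summit in the last 5 kb of the gene, so this place was the common one. Exons were not told from introns.

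**Figure D2:**
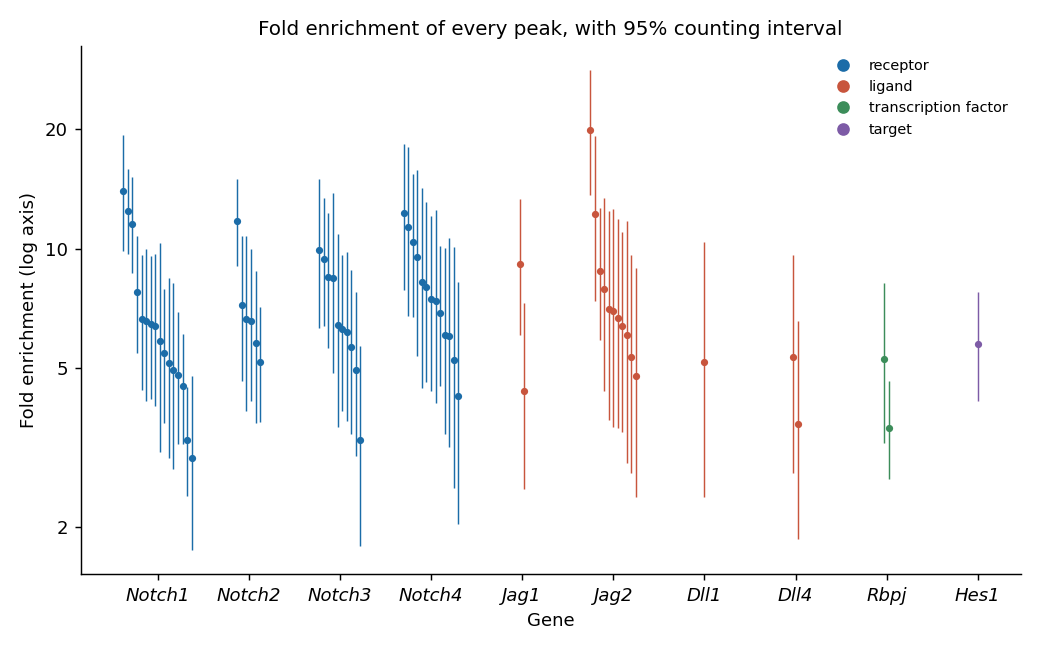
Fold enrichment (y axis, log scale) of each peak, sorted within each gene (x axis), with its 95% counting interval as a bar. The highest peak of Jag2, at 19.9-fold, has an interval above those of 9 other peaks of the gene, while in Notch4 the interval of the highest peak overlaps those of all 12 others.

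Among the ligands, Jag2 (NCBI gene 16450; chromosome 12, 112907803 to 112929812, minus strand) held the most peaks. This Jagged-type ligand had 11 in 22.0 kb, and 29 of 3157 genes of similar span held as many. With a −log10 q of at least 10 it held 3, and Jag1 held 1. Its peak from 112911082 to 112911439 reached 19.9-fold (13.6 to 28.1) on 30 fragments over a background of 0.560. Only 1.48% of genes with a peak had one as high. The next peak, from 112913502 to 112913930, reached 12.2-fold (7.40 to 19.2) on 17 fragments, and its interval was the one in the gene to overlap that of the highest. The other 9 peaks ran from 4.80-fold to 8.78-fold. Of the 11 summits, 8 lay past the midpoint of the span. The peak at 42.5% of the span reached 15 bases into the hairpin of Mir6941, shown above, and stood at 5.33-fold (2.73 to 9.64) on 9 fragments.

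Jag1 (NCBI gene 16449; chromosome 2, 137081451 to 137116520, minus strand), the other Jagged-type ligand, held 2 peaks in 35.1 kb. The first, from 137116243 to 137116504, reached into the promoter window printed above, covering 34 of its bases, all after the start site. It was the one member peak to overlap a promoter window of its own gene, and 2.94% of all promoter windows were overlapped by a peak. Its enrichment was 4.39-fold (2.48 to 7.29) on 13 fragments. The second peak, 8480 bp from the gene end, reached 9.16-fold (6.05 to 13.4) on 25 fragments. The highest peak of Jag2 was 2.17 times that of Jag1, and their intervals did not overlap.

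The peaks of the Delta-type ligands rested on few fragments. Dll1 (NCBI gene 13388; chromosome 17, 15367354 to 15376932, minus strand) held a single peak, 242 bp wide, at 5.18-fold (2.37 to 10.4). It rested on 6 fragments, the fewest of the 64 peaks, over a background of 0.350. Dll4 (NCBI gene 54485; chromosome 2, 119325784 to 119335666, plus strand), a ligand of sprouting vessels, held 2 peaks of 9 fragments each. The first, with its summit 686 bp from the start, stood at 5.33-fold (2.73 to 9.64) and is the one whose sequence is shown. The second stood at 3.64-fold (1.86 to 6.57). None of these 3 peaks remained with a −log10 q of at least 10. A peak of low enrichment on so few fragments is near the limit of what this depth could show. Peaks of Jag2 and Notch4 also went down to 7 fragments, with medians of 10 and 13, so their peak numbers share this limit.

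Rbpj (NCBI gene 19664; chromosome 5, 53555779 to 53657445, plus strand), the DNA-binding protein through which all 4 receptors act, held 2 peaks in 101.7 kb, or 0.197 per 10 kb, the lowest density of the 10 genes in the full list. Of 1489 genes of similar span, 455 (30.6%) held as many or more. The gene table puts its span well ahead of the start sites of the promoter table, at 53590346 and 53590486. The first peak, from 53591450 to 53591735, lay 914 bp past the nearer promoter window, at 5.29-fold (3.25 to 8.20) on 18 fragments. The second lay 4018 bp from the gene end, at 3.54-fold (2.64 to 4.65). That peak had 49 fragments, more than any ligand peak, over a background of 13.1, the highest of the 64.

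Hes1 (NCBI gene 15205; chromosome 16, 30065357 to 30067796) is the shortest of the genes, at 2.44 kb. Its single peak, from 30066767 to 30067484, was 718 bp wide and covered 29.4% of the span. Enrichment was 5.75-fold (4.15 to 7.78) on 40 fragments over a background of 6.13. Of 1027 genes of similar span, 21.6% held a peak. Its strand was not in the promoter table, so the place of the peak is given only in genome order.

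**Figure D3:**
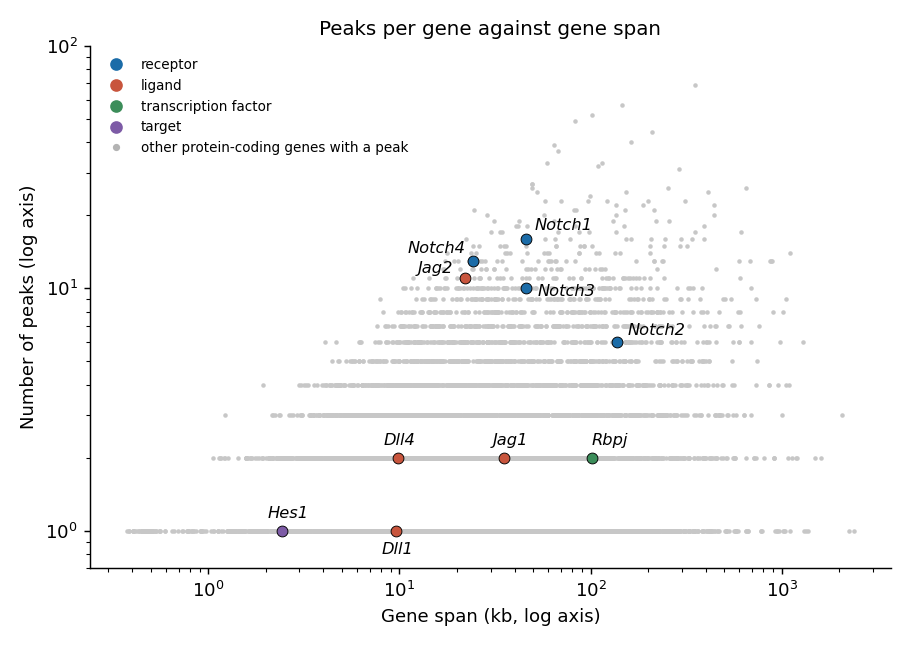
Number of peaks (y axis, log scale) against gene span in kb (x axis, log scale) for every protein-coding gene with a peak (grey) and the 10 genes (coloured). Notch1 with 16, Notch4 with 13, Jag2 with 11 and Notch3 with 10 peaks lie high among genes of their span, whereas Rbpj, with 2 peaks in 101.7 kb, does not.

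The number of peaks did not follow the span. The receptors together held 1.78 peaks per 10 kb and the ligands 2.09, but without Jag2 the ligands held 0.917, with 5 peaks in 3 genes. Of the 10 genes, 4 had 10 or more peaks, namely Notch1, Notch3, Notch4 and Jag2, against 1.37% of protein-coding genes. With a −log10 q of at least 10 this was 1 of 10, Notch1, against 0.343% of genes, and without peaks below the median fold it was 1 of 10, Notch4, against 0.347%. In the full list, a peak of at least 10-fold was found in Notch1, Notch2, Notch4 and Jag2, again 4 of 10, against 5.84%. In genes with a span within 25% of a member's own, the share with any peak ran from 21.6% for Hes1 to 49.1% for Notch2. Transcript abundance was not matched in these shares, and its part in the number of peaks was not tested.

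Fold enrichment was compared between genes at their highest peaks, by whether the counting intervals overlapped. The order was Jag2, Notch1, Notch4, Notch2, Notch3, Jag1, Hes1, Dll4, Rbpj and Dll1, and neighbours in it overlapped. In 11 of 45 pairs the intervals did not overlap. The share among pairs of other genes was not worked out, so 11 of 45 has no background to be read against. Of the 11, 5 set Jag2 above Jag1, Hes1, Dll4, Rbpj and Dll1. Notch1 lay above Hes1, Dll4 and Rbpj, Notch2 above Hes1 and Rbpj, and Notch4 above Hes1. No pair of receptors differed in this way. A gene with more peaks has more from which its highest is taken, and the medians over the peaks of a gene spanned less, from 4.41-fold in Rbpj to 7.48-fold in Notch4. The median over all 64 peaks was 6.44-fold, against 5.58-fold in the whole list.

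**Figure D4:**
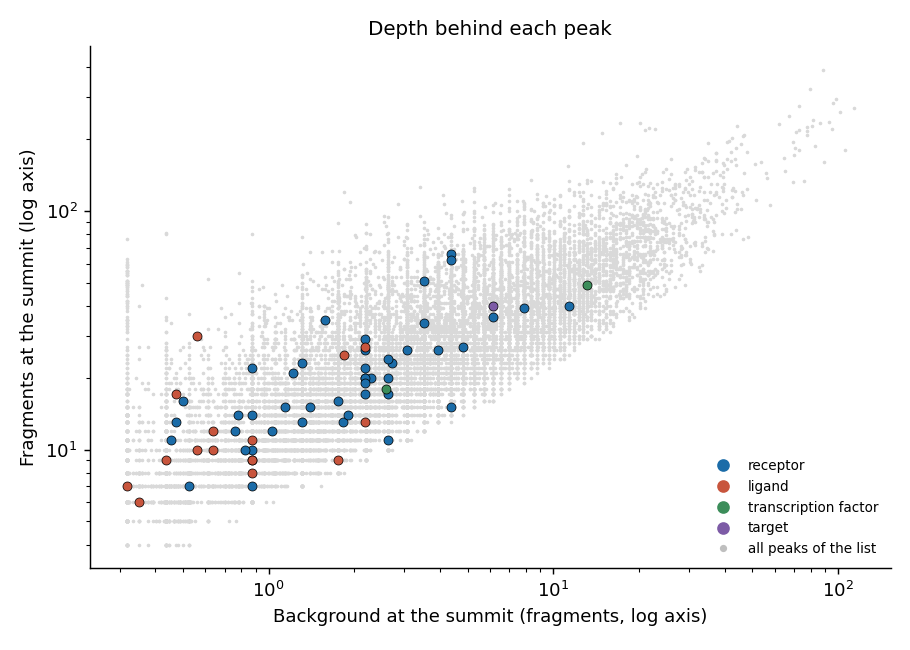
Fragments at the summit (y axis, log scale) against the background there (x axis, log scale) for all peaks (grey) and the 64 peaks (coloured). The ligand peaks have a median background of 0.757 fragments, or 1.75 without those of Jag2. The highest background among the coloured points, 13.1, belongs to Rbpj.

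The low background of some peaks bears on the order of the genes. Its median was 0.639 fragments over the peaks of Jag2 and 0.875 over those of Notch4, and Dll1 had 0.350 at its peak. Over the ligand peaks without Jag2 the median was 1.75. The peak caller adds 1 to the fragments and to the background, which lowers the ratio most where both are small. With the ratio taken without it, the highest peak stood at 53.5-fold in Jag2, 32.1 in Notch4, 22.2 in Notch1 and 18.0 in Notch3. In Notch4 and Notch3 this was another peak than the highest described above, which stood at 25.1 and 17.3. Dll1 then stood at 17.1-fold, the fifth in order instead of the last, and ahead of Notch2 at 14.2 and Jag1 at 13.6. Dll4 stood at 10.3-fold, and Rbpj and Hes1 came last, at 6.95-fold and 6.53-fold. Jag2 was highest both ways.

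Of the 63 summits in genes with a known strand, 38 (60.3%) lay past the midpoint of the span, against 66.6% of summits in all protein-coding genes with a strand. The 63 summits lie in 9 genes, 16 of them in Notch1, and are not independent, so no interval is given. Within 1 kb of the gene start lay 4 summits (6.35%, against 9.53%), those of Notch1, Jag1, Jag2 and Dll4. The start was that of the span. The summit of Dll1 lay 1444 bp from it, but the gene has another start site within its span, at 15375823. The Dll1 peak lay 154 bp from the promoter window of that site. In the last 5 kb lay 14 (22.2%, against 38.4%). Among genes of at least 20 kb, the shares in the last 5 kb were 21.7% and 25.3%, and the shares past the midpoint 61.7% and 68.9%.

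The other genes of the pathway were taken from a list of 54, chosen with earlier results of these data known. Of these, 35 (64.8%) held a peak, against 30.6% of protein-coding genes. That share was not matched for span or transcript abundance. A peak of at least 10-fold was found in 9 of the 54, against 5.84% of protein-coding genes. Each role held between 4 and 9 genes, and the counts by role are a description with no test. None of the 4 other ligands (Dll3, Dlk1, Dlk2 and Dner) held a peak. Fringe enzymes, which add sugars to the receptors and so tune their response to each ligand, all held one. Rfng reached 10.4-fold (8.52 to 12.6) on 105 fragments, Mfng 6.40-fold and Lfng 4.00-fold. Pofut1 and Poglut1, which begin the sugar chains, held none. Of the 9 genes for receptor cleavage, 6 held a peak, led by the protease gene Adam10 at 15.8-fold (10.3 to 23.1), whereas Adam17 held none.

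**Figure D5:**
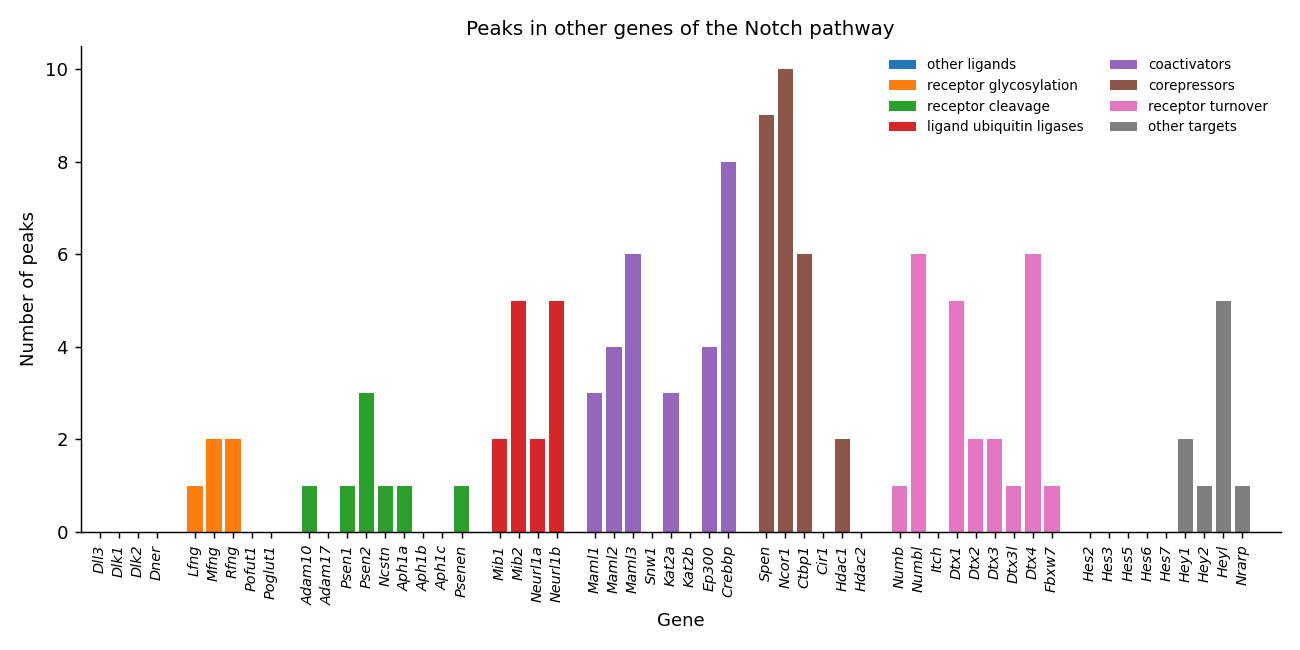
Number of peaks (y axis) in each of the 54 other genes of the pathway (x axis), coloured by role. The corepressor gene Ncor1 has 10 peaks, the most of these genes, and the other ligands and Hes2, Hes3, Hes5, Hes6 and Hes7 have none.

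Of the 115 peaks in these 54 genes, 28 lay in coactivator genes and 27 in corepressor genes. A peak was present in 6 of 8 coactivator genes (all but Snw1 and Kat2b) and in 4 of 6 corepressor genes (all but Cir1 and Hdac2). Over all protein-coding genes the share was 30.6%. Ncor1, which encodes a nuclear receptor corepressor, held 10 in 142 kb, of which 3 summits also lay in another protein-coding gene. Spen, a corepressor that binds Rbpj, held 9, with 18.3-fold (14.1 to 23.5) at the highest. Ctbp1 held 6. Among the coactivators, Crebbp held 8 peaks, and the Mastermind genes Maml1, Maml2 and Maml3 held 3, 4 and 6, at 7.63-fold, 6.73-fold and 6.74-fold. These Mastermind intervals overlapped each other. The spans of Maml2 and Maml3 are very long, at 413 kb and 418 kb, against 37.5 kb for Maml1.

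Regulators of ligand and receptor turnover held peaks in nearly all cases, against 30.6% of all protein-coding genes, not matched for span or abundance. The 4 ubiquitin ligase genes that prepare ligands for endocytosis each held one, with Mib1 at 17.7-fold (12.3 to 24.7). Of the 9 genes for receptor turnover, 8 held one, all but Itch. The Deltex gene Dtx1 reached 22.0-fold (16.5 to 28.9) with 5 peaks. Numbl, related to the Notch inhibitor Numb, reached 18.7-fold (13.4 to 25.4) with 6, and Dtx4 also held 6.

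Of the 9 other target genes, 4 (44.4%) held a peak, against 30.6% of all protein-coding genes. Hes2, Hes3, Hes5, Hes6 and Hes7 held no peak. Their spans are short, from 1.75 kb in Hes5 to 6.66 kb in Hes3. Among genes with a span similar to that of Hes1, 21.6% held a peak. Of the related Hey repressors, Heyl held 5 peaks, with 7.38-fold (5.02 to 10.5) at the highest, Hey1 held 2, with 5.56-fold (2.65 to 10.7), and Hey2 held 1, at 2.95-fold (1.60 to 5.09). Nrarp, a feedback inhibitor, held 1 at 6.92-fold (4.06 to 11.1). A gene without a peak gives no background value, so enrichment in it was not detectable at this depth, and low abundance and lack of enrichment cannot be told apart.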

How the data were processed

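The files held 1 peak list for the series, made from the ac4C immunoprecipitation library. Per the submitters' processing notes, HISAT2 2.2.1, MACS3 3.0.0a7 and the build mm10 were used; the roles, parameters and the use of the input as control are not given in the sources used here. Per the labels' protocols, RNA was extracted with TRIzol and libraries were made with a directional kit. The deposited values were the fold enrichment (a ratio), −log10 p-value, −log10 q-value, score and summit offset of each peak, all by the authors. The largest q-value was 0.0499.

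Summits were placed in gene spans of RefSeq GRCm38.p6, the assembly that mm10 names. Strands came from the RefSeq promoter table, which held 9 of the 10 genes. Summits in several genes were counted for each. For each peak, the whole number of fragments was sought that gave both the fold enrichment (with a pseudocount of 1 on signal and background) and the Poisson p-value. It was found for 21192 of 21192 peaks within a relative tolerance of 1e-05. No second number was within it in any peak (0 cases), and the step returned the right number in 100% of 962 simulated peaks. Python 3.11.15, scipy 1.17.1 and pandas 2.3.3 were used.

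With 1 library in each group no test was made. The 10 genes and all lists were chosen with earlier results of these data known. Named were all 10 genes and, of the other pathway genes, those with most peaks (5, with ties at 6 peaks) and the 5 highest folds, the Hes, Hey, Fringe and Mastermind families; further pathway genes were named after their values were seen. A planned gene of the pathway list is not reported here.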

Additional observations from a re-analysis of the deposited data

How the results depend on the processing

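No paired analysis was possible because each group had 1 library. With a −log10 q of at least 10, peaks in the 10 genes numbered 30 instead of 64, receptor peaks 24 instead of 45 and ligand peaks 4 instead of 16, by construction. When peaks below the median fold of 5.58 were left out, ligand peaks numbered 10. The genes with a peak numbered 8 and 7 under these filters, and pathway genes with a peak 24 and 26. The genes with 10 or more peaks numbered 1 and 1 instead of 4, and 3 without summits in a gene of any other kind, all chosen after the data were seen. The highest folds of the 10 genes had a median of 9.54, which became 15.6 without the pseudocount, by its construction, and 6.24 with the median over each gene's peaks. Counting any overlap, or leaving out summits in 2 or more protein-coding genes, changed none of these counts. Leaving out summits in a gene of any other kind, chosen after the data were seen, left 61 peaks. The share past the midpoint ran from 58.3 to 69.0% under the alternatives, and 71.4% of summits lay more than 10 kb from the start. Peaks of Dll1 and Dll4 rest on 6 and 9 fragments, and some of Jag2 and Notch4 on as few as 7, which limits what can be said of them.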
